A study of Mus musculus with 4 samples.

Results

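Among the fetal mouse cells labelled E18.5, cells with transcripts of the B cell receptor signal chains but none of the surrogate light chain were examined. The members were the cells of both E18.5 libraries with at least 500 detected genes, at least 2 UMIs of Cd79a and Cd79b together, and 0 UMIs of Vpreb1 and Igll1. A UMI is a molecular tag that counts 1 captured transcript. The members were thus chosen by measured values, namely their Cd79a, Cd79b, Vpreb1 and Igll1 counts, and these are not findings below. Cells with 10% or more of their UMIs from S100a8 and S100a9, or from the haemoglobin genes, were left out. There were 1293 members among 33551 E18.5 cells, in a series of 43351 cells. The library of the null mother held 628 members among 16517 cells, and that of the het mother held 665 among 17034 cells. Both libraries came from Cyp27a1-/- fetuses at E18.5 and were labelled as lung, with cells freed by collagenase and dispase, cleared of red cells by ammonium chloride and captured on the 10x Chromium system. The null mother was Cyp27a1-/- and the het mother was Cyp27a1+/-. Values of their libraries are marked null and het. Cyp27a1 encodes sterol 27-hydroxylase, a mitochondrial enzyme that oxidises the side chain of cholesterol on the way to bile acids. Whether fetuses were pooled is not given in the labels, and 1 library per group allows no test between the mothers. All intervals below are 95% intervals, exact unless called approximate, and cover counting error only, not differences between fetuses, litters or preparations.

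B cells are built stepwise in the fetus. A precursor first rearranges its heavy chain gene and pairs the mu chain with a surrogate light chain, made of VpreB and lambda5 (Vpreb1, Vpreb2 and Igll1), to form the pre-B cell receptor. Signals from that receptor shut off the surrogate chain and open the kappa and lambda light chain loci, and a cell that joins a true light chain to mu becomes an immature IgM B cell. CD79A and CD79B carry the signal of both receptors, so the rule keeps cells with the signal chains and drops those in which the surrogate chain was seen. At this age the mouse liver is a main site of B cell formation, and mature follicular B cells belong to later life.

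The promoters of the genes that set the rule or stayed on when the surrogate chain was off are shown because their regulation defines the stage. Each sequence is the 160 bases before the transcription start, 5′ to 3′ on the strand of the gene, from RefSeq on GRCm38.p6. Cd79a lies at chr7:24897337-24897496 on the plus strand, Vpreb1 at chr16:16869256-16869415 on the minus strand, Igll1 at chr16:16863986-16864145 on the minus strand, and Vpreb3 at chr10:75948140-75948299 on the plus strand. Capitals mark the E-box CANNTG, which is the motif of E2A and other basic helix-loop-helix factors, and the octamer ATGCAAAT, which is the motif of Oct factors, on either strand.
Cd79a: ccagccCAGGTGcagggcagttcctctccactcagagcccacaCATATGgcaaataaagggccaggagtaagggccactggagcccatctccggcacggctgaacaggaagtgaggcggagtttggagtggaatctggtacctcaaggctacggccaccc
Vpreb1: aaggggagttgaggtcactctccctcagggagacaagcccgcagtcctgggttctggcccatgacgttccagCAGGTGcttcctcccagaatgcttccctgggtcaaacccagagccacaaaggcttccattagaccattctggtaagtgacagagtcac
Igll1: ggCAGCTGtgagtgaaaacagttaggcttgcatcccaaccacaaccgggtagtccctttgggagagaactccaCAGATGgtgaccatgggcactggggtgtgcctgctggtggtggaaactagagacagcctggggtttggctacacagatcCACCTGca
Vpreb3: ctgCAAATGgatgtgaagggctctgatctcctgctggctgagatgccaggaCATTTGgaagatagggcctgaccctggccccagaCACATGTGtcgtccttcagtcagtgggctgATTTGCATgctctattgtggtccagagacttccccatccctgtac
The stretches shown hold 2 E-boxes at Cd79a, 1 at Vpreb1, 3 at Igll1 and 4 at Vpreb3, and 2 of those at Vpreb3 overlap each other. An E-box occurred in 72.3% of 32851 mouse promoters of the full RefSeq window, so its presence sets none of these apart. The octamer occurred in 1.74% of them and, of these 4 genes, was found at Vpreb3 only, where it starts 45 bases before the transcription start. Vpreb3 encodes a protein of the VpreB family that binds free mu chains and is not part of the surrogate light chain. Its transcript was found in 96.4% of null-mother and 98.1% of het-mother cells of the Cd79a core, a set of members described below.

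The tissue label was set against lung and liver genes, since it decides where these cells could have come from. Sftpc, the surfactant gene of distal lung epithelium, reached 3 UMIs in 0.0484% of null-mother cells and 0.106% of het-mother cells. Alb, the albumin gene of hepatocytes, reached 3 UMIs in 36.2% of null-mother cells and 8.48% of het-mother cells. Haemoglobin took at least 10% of UMIs in 18.9% of null-mother and 34.1% of het-mother cells. The defining genes of lung epithelium were thus close to absent from both libraries, against the label. The libraries also differed in sex and depth. Of cells with a sex call from Xist and Y-linked genes, 3875 were male and 4411 female in the null-mother library, while 5395 were male and 22 female in the het-mother library. The null-mother library held 118054232 UMIs (median 4848 per cell) and the het-mother library 97894048 UMIs (median 3782.5 per cell). Of the members, 4 in the null-mother and 2 in the het-mother library had a cell barcode also found in another library of the series.

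The members made up a like share of both libraries, 3.80% of null-mother cells (3.52 to 4.11%) and 3.90% of het-mother cells (3.62 to 4.21%). They were a minority of the cells with at least 2 Cd79 UMIs that met the same limits. Members were 25.3% of 2479 such cells in the null-mother library and 29.0% of 2291 in the het-mother library. The rest carried Vpreb1 or Igll1 UMIs, and numbered 1851 (null) and 1626 (het). At the edge of the rule, 137 null-mother and 118 het-mother cells were kept out by a single Vpreb1 or Igll1 UMI.

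Against the label, the members were not all B cells. Cd79a had a UMI in 349 null-mother members (55.6%) and 507 het-mother members (76.2%). The remaining 279 null-mother members (44.4%, 40.5 to 48.4%) and 158 het-mother members (23.8%) met the rule through Cd79b alone. Of these Cd79b-only members, 257 in the null-mother library (92.1%) and 127 in the het-mother library (80.4%) had 3 or more UMIs of genes of another blood cell. The sets were neutrophil granule proteases (Elane, Mpo, Prtn3, Ctsg), macrophage complement (C1qa, C1qb, C1qc), basophil proteases (Mcpt8, Prss34), platelet chemokines (Pf4, Ppbp) and the plasmacytoid receptor Siglech. Granule proteases were the most frequent, in 189 null-mother and 103 het-mother cells, and complement genes were found in 62 (null) and 13 (het) cells. Pf4 or Ppbp marked 34 null-mother and 14 het-mother cells.

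Genes of B cells were low in the Cd79b-only members, and lower in those of the null-mother library. Elane, the neutrophil elastase gene, stood at 4641 CPM in Cd79b-only members of the null-mother library and 3670 CPM in those of the het-mother library. CPM here are the UMIs of a gene scaled to 1000000 UMIs summed over a set of cells. Ebf1, a transcription factor that sets B cell identity, stood at 4.18 (null) and 48.7 CPM (het) in the same cells. Ighm, the mu constant region, stood at 41.5 (null) and 90.1 CPM (het). Igkc, the kappa constant gene, had a UMI in 2.87% (null) and 12.0% (het) of them, beside 1.94% (null) and 2.05% (het) of cells with no Cd79 UMI. The Cd79b-only members also held far more RNA, with a median of 12308 UMIs in the null-mother and 10880 in the het-mother library, against 2667 (null) and 1922 UMIs (het) in Cd79a-positive members.

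The balance of both Cd79 transcripts differed between kinds of cell. In cells with granule proteases and no B cell gene, Cd79b made up 92.8% of Cd79a and Cd79b UMIs in the null-mother library and 96.8% in the het-mother library. In cells with C1q genes and no B cell gene it made up 96.5% (null) and 95.4% (het). In cells with Alb and none of these genes it made up 55.9% (null) and 68.8% (het), and in haemoglobin-rich cells with no B cell gene 81.1% (null) and 60.7% (het). In surrogate light chain positive cells, which were chosen by their Cd79 sum, it made up 35.5% (null) and 38.5% (het). The cells with granule proteases had Cd79b at 36.7 (null) and 35.3 CPM (het), or 86.8 (null) and 58.2 CPM (het) in the C1q cells. The rule set its lower edge at a Cd79 sum of 2. Cells with a Cd79 sum of 1, just outside, numbered 825 (null) and 540 (het) and had an Elane UMI in 47.2% (null) and 43.0% (het). Cells with a sum of 2, just inside, numbered 218 (null) and 132 (het) and had one in 61.0% (null) and 49.2% (het).

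**Figure D1:**
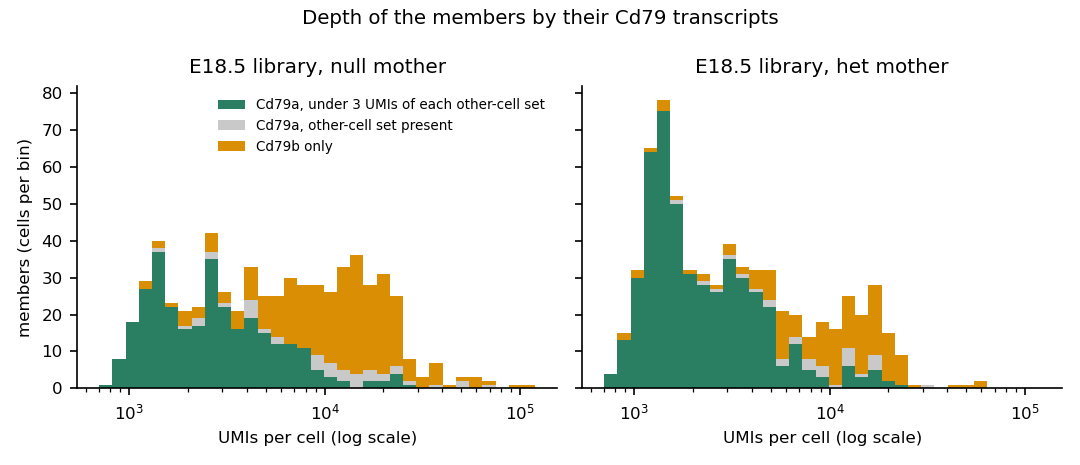
Number of members by UMIs per cell (log scale) in the null-mother (left) and het-mother (right) E18.5 library, coloured by their Cd79 transcripts; the bars are stacked. Cd79b-only members sit at high depth, with medians of 12308 and 10880 UMIs, and Cd79a-positive members with few other-cell UMIs fill the low end.

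A narrower set was therefore taken from the members after these values had been seen. It took cells with a Cd79a UMI and fewer than 3 UMIs in each of the sets of other blood cells. Those sets hold no genes of hepatocytes, red cells or T and NK cells, so RNA of such cells could remain. In 16.3% of null-mother and 1.05% of het-mother cells kept, a list of 10 hepatocyte genes reached 0.5% of UMIs. This Cd79a core held 307 null-mother cells (1.86% of the library, 1.66 to 2.08%) and 477 het-mother cells (2.80%, 2.56 to 3.06%). The core is the base of what follows, and values over all members are given where they differ. Surrogate light chain positive cells with the same filter, 1722 (null) and 1539 (het) cells, served as the comparator. Core cells had a median of 2524 UMIs in the null-mother and 1789 in the het-mother library, against 2977 (null) and 2499 (het) in the comparator.

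While the members as a whole had overlapping intervals, the core was a smaller part of the null-mother library. Of core and comparator cells together, the core was 15.1% in the null-mother library (13.6 to 16.8%) and 23.7% in the het-mother library (21.8 to 25.6%). Among male cells only, it was 12.2% in the null-mother library (9.27 to 15.7%) and 18.9% in the het-mother library (16.1 to 22.0%). The intervals did not overlap in either case, but with 1 library each the mother's genotype cannot be told apart from any other difference between the libraries.

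**Figure D2:**
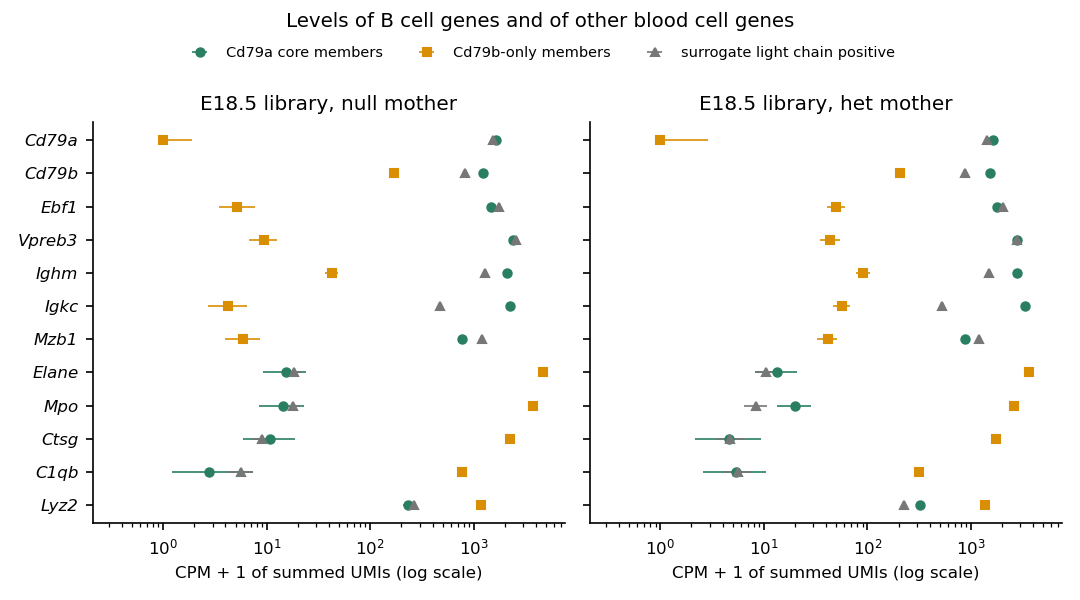
Level of each gene as CPM + 1 (log scale) in Cd79a core members, Cd79b-only members and surrogate light chain positive cells with the core's filter, null-mother library on the left and het-mother library on the right; bars are exact 95% Poisson intervals. The core and the comparator lie together at high Ebf1, Vpreb3 and Ighm, while the Cd79b-only members lie low there and high at Elane, Mpo and Ctsg. Cd79a and Cd79b set the rule, and the low Elane, Mpo, Ctsg and C1qb of the core and the comparator are set by the core's filter.

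The core cells carried the genes of committed B cells. Ighm had a UMI in 97.1% (null) and 98.5% (het) of core cells, and Ebf1 in 91.5% (null) and 94.3% (het). Pax5, which locks in B cell fate, was seen in 32.9% (null) and 36.1% (het). Ms4a1, the CD20 gene, was seen in 9.77% (null) and 13.2% (het) of core cells, at 72.4 CPM (57.5 to 90.0) in the null-mother core and 107 CPM (90.2 to 125) in the het-mother core. In the comparator it was at 9.80 (null) and 9.41 CPM (het). Ly6d, a surface protein of B-committed progenitors and their progeny, was seen in 56.0% (null) and 62.1% (het) of core cells. Cd74, the invariant chain of MHC class II, was seen in 19.9% (null) and 24.9% (het).

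Genes of later B cells were rare or not found. Fcer2a, the CD23 gene of follicular B cells, had 0 UMIs in 307 null-mother and 477 het-mother core cells, where 3 counts of the total, the limit used for a 0, would be 0.977% (null) and 0.629% (het) of cells. Cr2, the complement receptor CD21, was found in 2 null-mother and 0 het-mother cells. Ighd, the delta constant region, was found in 7.17% of null-mother and 8.18% of het-mother core cells, beside 8.42% (null) and 7.15% (het) in the comparator. Jchain, which joins secreted IgM, was found in 1 null-mother and 0 het-mother cells, and Igha in 0 (null) and 2 (het). Ighg1 had 0 UMIs in both. Cd5, a gene of B-1a cells, was found in 1 null-mother and 2 het-mother cells.

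Genes of the recombination step remained in part. Rag1, a subunit of the recombinase that cuts antigen receptor genes, was seen in 14.7% of null-mother and 24.7% of het-mother core cells, against 28.5% (null) and 35.6% (het) of comparator cells. Its level was 55.4 CPM (42.5 to 71.1) in the null-mother core and 118 CPM (100 to 137) in the het-mother core. Rag2, the other subunit, was at 23.3 (null) and 28.3 CPM (het). Dntt, the terminal transferase that adds bases at the joins, had 0 UMIs in the core of both libraries and was found in 5 null-mother and 3 het-mother comparator cells. Il7r, the interleukin 7 receptor of B precursors, was seen in 53.4% (null) and 57.4% (het) of core cells. Immunoglobulin variable segments were barely captured, with 34 UMIs in the null-mother and 74 in the het-mother core over 348 annotated segments, so no repertoire can be read.

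Most core cells carried kappa constant region transcripts. The kappa constant gene Igkc had a UMI in 264 of 307 null-mother core cells (86.0%, 81.6 to 89.7%) and in 437 of 477 het-mother core cells (91.6%, 88.8 to 93.9%). It was seen in 37.5% (null) and 37.6% (het) of comparator cells. As the background level, cells with no Cd79 UMI had an Igkc UMI in 1.94% (null) and 2.05% (het) of cases, at a median of 4811 (null) and 3777 UMIs (het). The level of Igkc was 2263 CPM in the null-mother core and 3323 CPM in the het-mother core, against 471 (null) and 524 CPM (het) in the comparator. Core cells with no light chain UMI numbered 40 of 307 in the null-mother library and 28 of 477 in the het-mother library.

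Lambda transcripts marked fewer cells and were less frequent in the null-mother core. At least 1 UMI of Iglc1, Iglc2 or Iglc3 was found in 37 null-mother core cells (12.1%, 8.63 to 16.2%) and 124 het-mother core cells (26.0%, 22.1 to 30.2%). Comparator cells had lambda in 0.929% (null) and 1.75% (het) of cases, and cells without Cd79 UMIs in 0.237% (null) and 0.259% (het). Iglc1 was seen in 8.47% (null) and 17.0% (het) of core cells and Iglc3 in 9.77% (null) and 21.4% (het), while Iglc2 was seen in 2 (null) and 4 (het) cells. Iglc3 shares 10.7% of its 50-base transcript windows with Iglc2, so reads could pass between those genes, and Iglc1 shares none with either. Among male core cells, lambda was seen in 9.62% (null, 5 of 52 cells, 3.20 to 21.0%) and 22.5% (het, 15.8 to 30.3%). Those intervals overlap. Under 2000 UMIs, where lambda was most frequent, lay 16 of the 52 (null) and 62 of the 138 (het) male core cells. The male shares were thus not taken at equal depth, and sex was not tested apart from depth. With every core cell thinned to 1000 UMIs, leaving out 13 (null) and 21 (het) shallower cells, the lambda share was 10.7% (null) and 22.2% (het). With thinning to 2000 UMIs, which leaves 182 (null) and 218 (het) of the deeper cells, it was 2.16% (null) and 3.09% (het).

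Most cells with lambda transcripts also had kappa transcripts, as did most core cells of any kind. Of the cells with lambda, 34 of 37 in the null-mother core and 112 of 124 in the het-mother core also had an Igkc UMI, and 3 (null) and 12 (het) did not. With a minimum of 2 lambda UMIs, 23 of 26 null-mother and 76 of 87 het-mother cells had Igkc as well. Igkc was seen in 86.0% (null) and 91.6% (het) of all core cells. Under 2000 UMIs, 90.9% (null) and 89.6% (het) of lambda cells had Igkc. The share in all core cells of that depth was 89.6% (null) and 91.5% (het). Over all core cells, lambda made up 10.9% (null) and 17.0% (het) of light chain UMIs. Constant region counts do not separate a rearranged transcript from a germline one, so these are no counts of kappa or lambda B cells.

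**Figure D3:**
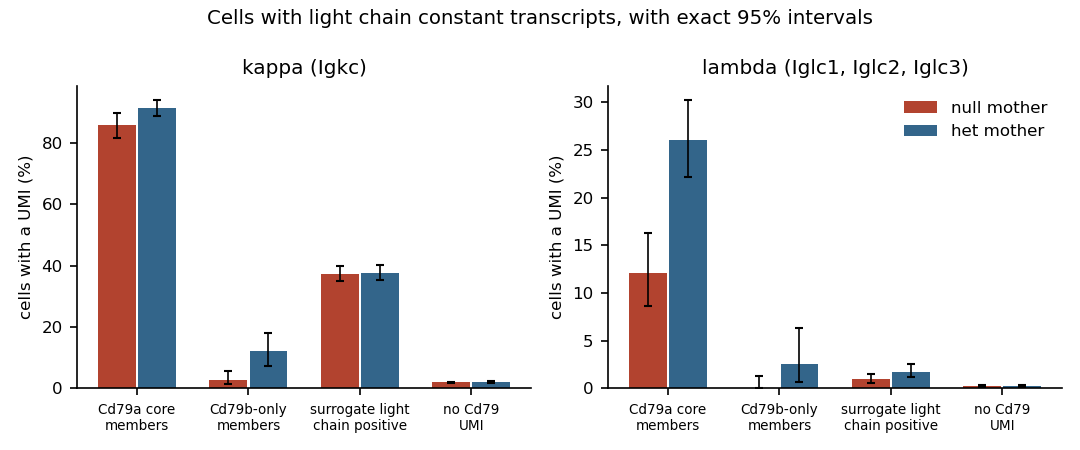
Share of cells with a UMI of the kappa constant gene (left) and of a lambda constant gene (right) in 4 kinds of E18.5 cell, null-mother bar before het-mother bar, with exact 95% Clopper-Pearson intervals; the surrogate light chain positive cells have the core's filter. Kappa is seen in 86.0% and 91.6% of the core, and lambda in 12.1% and 26.0%.

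The core was not uniform: lambda was most frequent in cells under 2000 UMIs, and mitotic genes were highest in cells of 2000 to 6000 UMIs. Cells with under 2000 UMIs made up 125 of the null-mother core (40.7%) and 259 of the het-mother core (54.3%). Lambda was seen in 26.4% (null) and 44.4% (het) of them. In the 137 (null) and 179 (het) core cells of 2000 to 6000 UMIs it was seen in 2.92% (null) and 3.91% (het), and in the 45 (null) and 39 (het) deeper cells in 0% (null, up to 7.87%) and 5.13% (het). At least 2 UMIs of 16 genes of G2 and M phase were found in 24.8% (null) and 19.3% (het) of core cells under 2000 UMIs, and in 86.9% (null) and 86.6% (het) of those of 2000 to 6000 UMIs. The summed level of those genes, which does not scale with depth, was 1957 (null) and 1357 CPM (het) in the shallow cells and 7119 (null) and 7187 CPM (het) in the middle ones, and 4707 (null) and 4575 CPM (het) in the deepest. The comparator had the same order, with 1288 (null) and 859 CPM (het), then 5466 (null) and 5025 CPM (het), then 4097 (null) and 4297 CPM (het). Lambda transcripts were thus less frequent over 2000 UMIs than below, although more UMIs give more chance to see a gene.

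Set beside cells of the same depth, those with lambda had the highest levels of late B cell genes. Among core cells under 2000 UMIs, 33 null-mother and 115 het-mother cells had lambda, and 82 (null) and 134 (het) had kappa but no lambda, while the comparator gave 588 (null) and 612 (het) cells. Their median depths lay close, at 1364 (null) and 1312 UMIs (het) for lambda cells, 1381 (null) and 1426 UMIs (het) for kappa-only cells, and 1489 (null) and 1451 UMIs (het) for the comparator. Ms4a1 was at 809 (null) and 646 CPM (het) in lambda cells, 114 (null) and 121 CPM (het) in kappa-only cells, and 9.23 (null) and 6.73 CPM (het) in the comparator. Cd74 was at 3215 (null) and 1845 CPM (het) in lambda cells, 571 (null) and 504 CPM (het) in kappa-only cells, and 28.9 (null) and 24.7 CPM (het) in the comparator. Ly6d was at 6024 (null) and 6690 CPM (het) in lambda cells, 2180 (null) and 2665 CPM (het) in kappa-only cells, and 389 (null) and 533 CPM (het) in the comparator. Both libraries gave the same order for these genes. Cd2, an adhesion receptor, was at 225 (null) and 198 CPM (het) in lambda cells, 61.5 (null) and 110 CPM (het) in kappa-only cells, and 6.92 (null) and 7.85 CPM (het) in the comparator. Spib, a transcription factor of B cells, was at 652 (null) and 468 CPM (het) in lambda cells, 308 (null) and 357 CPM (het) in kappa-only cells, and 133 (null) and 165 CPM (het) in the comparator.

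Of precursor and cycling genes, Lef1 was highest in the comparator, while Il7r and Mki67 peaked in kappa-only cells, as did Myl4. The lambda cells held 44486 (null) and 151729 UMIs (het) in all, so their low values rest on few UMIs. Lef1, a transcription factor of B precursors, was at 89.9 (null) and 65.9 CPM (het) in lambda cells, 52.8 (null) and 84.0 CPM (het) in kappa-only cells, and 626 (null) and 769 CPM (het) in the comparator. Il7r was at 157 (null) and 297 CPM (het) in lambda cells, 545 (null) and 735 CPM (het) in kappa-only cells, and 368 (null) and 526 CPM (het) in the comparator. Myl4, a myosin light chain gene, was at 360 (null) and 435 CPM (het) in lambda cells, 607 (null) and 609 CPM (het) in kappa-only cells, and 45.0 (null) and 50.5 CPM (het) in the comparator. Mki67, a gene of cycling cells, was at 89.9 (null) and 6.59 CPM (het) in lambda cells, 290 (null) and 278 CPM (het) in kappa-only cells, and 207 (null) and 163 CPM (het) in the comparator. Pax5 was higher in lambda cells, at 450 (null) and 409 CPM (het), than in kappa-only cells, at 246 (null) and 252 CPM (het). These classes were formed from the cells' own transcripts after values were seen, so the levels are a description.

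The cells outside the rule by a few surrogate light chain UMIs showed how gradual its edge was. Cd79a-positive cells with the core's filter were ordered by their Vpreb1 and Igll1 UMIs, in classes of 0, 1, 2 to 5, 6 to 10, 11 to 20 and over 20. Along them Igkc was at 2263, 1950, 902, 623, 310 and 173 CPM in the null-mother library. In the het-mother library it was at 3323, 1740, 1082, 498, 269 and 283 CPM. Ly6d was at 759, 495, 165, 99.5, 72.9 and 71.7 CPM in the null-mother library, and at 1375, 707, 269, 106, 91.8 and 59.9 CPM in the het-mother library. Lef1 ran the other way, at 53.6, 120, 213, 274, 375 and 427 CPM in the null-mother library, and at 66.8, 126, 213, 372, 527 and 495 CPM in the het-mother library. Cells with 1 surrogate light chain UMI lay between the core and those with 2 to 5. These classes were not matched for depth, and the levels differ with depth within the comparator itself. In null-mother comparator cells under 2000, of 2000 to 6000 and over 6000 UMIs, Igkc was at 1384, 460 and 314 CPM. Ly6d was at 389, 135 and 42.2 CPM in them, and Lef1 at 626, 508 and 202 CPM. A 0 is partly a matter of depth: with comparator cells thinned to 1000 UMIs, 12.9% of null-mother and 13.5% of het-mother cells would show no Vpreb1 or Igll1 UMI.

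**Figure D4:**
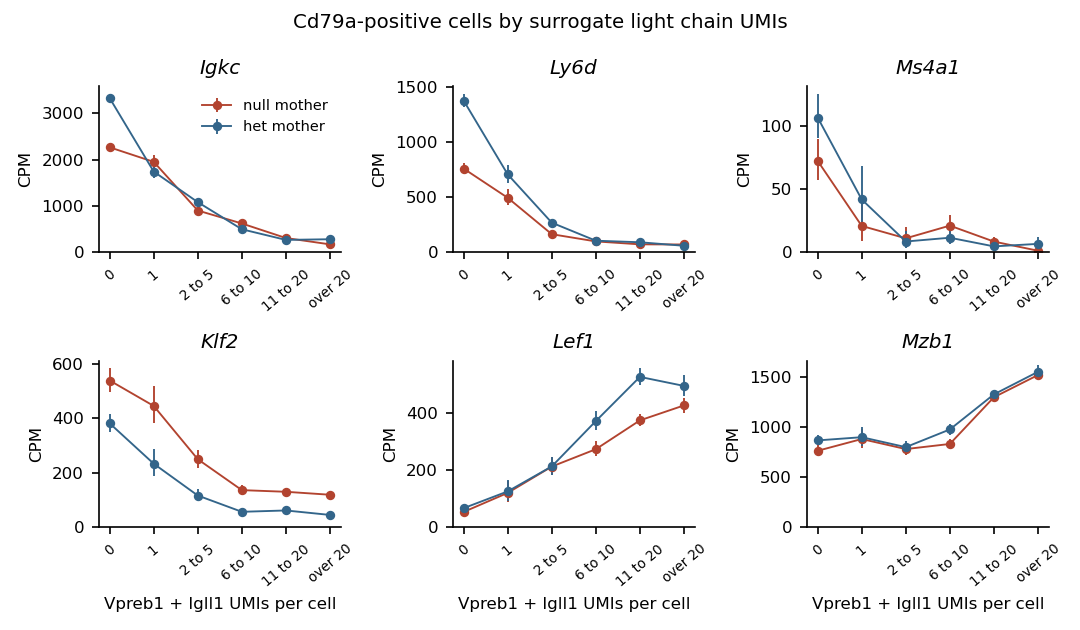
Level of 6 genes in CPM against the number of Vpreb1 and Igll1 UMIs per cell, over Cd79a-positive cells with the core's filter, null mother in red and het mother in blue; bars are exact 95% Poisson intervals, and the leftmost class is the core. Igkc, Ly6d and Klf2 are highest at 0 and Lef1 is lowest there, in both libraries.

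Across all genes, the core was set against the comparator within each library. This is the contrast the rule itself makes, so the values describe the cells and are no test. Genes counted as measured had 50 UMIs or more in the higher of the sets compared, and differences are log2 ratios of CPM + 10. Of 5108 genes measured, 26 (0.509%) were at least 2-fold higher in core cells of both libraries and 45 (0.881%) at least 2-fold lower. The lambda genes led, with Iglc1 higher by 3.93 in the null-mother and 4.50 in the het-mother library, and Iglc3 by 2.94 (null) and 3.82 (het). Igkc was higher by 2.24 (null) and 2.64 (het), Ly6d by 2.72 (null) and 3.12 (het), Cd74 by 2.52 (null) and 3.19 (het), Ms4a1 by 2.06 (null) and 2.59 (het), and Cd2 by 2.08 (null) and 2.50 (het). Klf2, a transcription factor of resting lymphocytes, was higher by 1.73 (null) and 2.21 (het), at 538 (null) and 381 CPM (het) in the core and 156 (null) and 74.6 CPM (het) in the comparator. Fcrla, an Fc receptor-like gene of B cells, was higher by 1.70 (null) and 1.99 (het), and Cnp by 1.58 (null) and 1.84 (het).

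The fixed list of pro-B and pre-B stage genes was not lower as a whole. In the core of each library 7 of 12 measured genes were higher, with medians of 0.06 (null) and 0.07 (het). Both the share higher and the medians lay above those over all measured genes, given in the next paragraph. Single genes of that stage were still among the lowest. Vpreb2, the near copy of Vpreb1 that the rule does not name, had ratios of -3.39 in the null-mother and -3.97 in the het-mother library. It shares 32.8% of its 50-base transcript windows with Vpreb1, so its counts are not independent of the rule. Lef1 had ratios of -2.46 (null) and -2.48 (het), Pcp4l1 of -2.05 (null) and -2.57 (het), Arpp21 of -1.96 (null) and -2.35 (het), Impdh1, which makes guanine nucleotides, of -2.01 (null) and -2.26 (het), and Bfsp2 of -1.82 (null) and -2.17 (het). Adgrg1, an adhesion receptor, had ratios of -1.56 (null) and -2.24 (het), and Bcat1, an enzyme of branched-chain amino acids, of -1.62 (null) and -1.85 (het). Speer2 had 0 UMIs in the core of either library against 240 (null) and 271 UMIs (het) in the comparator. Fcrl6 had 0 (null) and 1 UMIs (het) in the core against 216 (null) and 218 (het) in the comparator.

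Gene groups gave the same picture in both libraries for B cell genes and energy genes. Over all measured genes the median log2 ratio of core to comparator was -0.13 in the null-mother and -0.12 in the het-mother library, and 29.2% (null) and 31.5% (het) of genes were higher. Of 12 measured B cell identity genes, Cd79a and Cd79b of the rule among them, 10 (null) and 11 (het) were higher in the core, with medians of 0.45 (null) and 0.64 (het). Of 16 B cell transcription factors, 11 (null) and 13 (het) were higher, with medians of 0.40 (null) and 0.42 (het). Ikzf3, the Aiolos gene, was higher by 1.27 (null) and 1.75 (het), and Spib by 1.35 (null) and 1.47 (het), while Ebf1 had ratios of -0.26 (null) and -0.19 (het). Of 16 genes of G2 and M phase, 14 were higher in each library, with medians of 0.33 (null) and 0.26 (het). Of 13 glycolysis genes, 0 (null) and 1 (het) were higher, with medians of -0.31 (null) and -0.56 (het). Pkm, which makes pyruvate, had ratios of -1.02 (null) and -1.35 (het), and Ldha, lactate dehydrogenase, of -0.56 (null) and -1.05 (het). Of 9 genes of cholesterol synthesis and uptake, 6 were higher in the null-mother core and 0 in the het-mother core, with medians of 0.34 (null) and -0.25 (het).

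At matched depth, in cells of 2000 to 6000 UMIs, 14 of 3125 genes (0.448%) were at least 2-fold higher in core cells of both libraries and 79 (2.53%) at least 2-fold lower. Igkc remained higher by 2.19 (null) and 2.30 (het), Myl4 by 2.23 (null) and 1.94 (het), and Blk, a kinase of B cell receptor signalling, by 1.77 (null) and 1.48 (het). Ly6d was higher by 1.97 (null) and 1.63 (het), and Lef1 had ratios of -2.61 (null) and -2.68 (het). Iglc1 and Iglc3 were not among the 10 largest ratios at this depth. Ms4a1 rested on 24 (null) and 20 (het) core UMIs. Its level was 51.5 (null) and 33.3 CPM (het) in the core, against 19.7 (null) and 15.2 CPM (het) in the comparator. Over all 628 (null) and 665 (het) members in place of the core, 163 of 7919 genes (2.06%) were at least 2-fold higher in both libraries and 91 (1.15%) lower. The genes then highest were mostly of other blood cells. C1qa, C1qb, C1qc, Marco, Cd5l, Hmox1 and Fcna, all of tissue macrophages, made up 7 of the 10, with Iglc1, Pf4 and the granule protease gene Prtn3.

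The mothers were then compared within the core. Of 3652 measured genes, 115 (3.15%) were at least 2-fold higher in the null-mother core and 12 (0.329%) at least 2-fold lower. Of the 10 genes with the largest ratios, 8 are known genes of the fetal liver. Ttr, the transthyretin gene of hepatocytes, was at 2757 CPM in the null-mother core and 479 CPM in the het-mother core, a log2 ratio of 2.50. H19, an imprinted fetal RNA, was at 562 (null) and 62.4 CPM (het), and Serpina6, the cortisol-binding globulin gene, at 97.5 (null) and 3.63 CPM (het). Spp2, Dlk1, Pcbd1, Spink1 and Hpx had log2 ratios of 2.79, 2.55, 2.50, 2.45 and 2.30. A list of 10 hepatocyte genes made up 1.80% of UMIs in the null-mother core and 0.481% in the het-mother core, and all 10 were at least 2-fold higher in the null-mother core. It made up 1.27% (null) and 0.270% (het) of UMIs in the comparator.

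Without the cells in which the hepatocyte list reached 0.5% of UMIs, which left out 50 null-mother cells (16.3%) and 5 het-mother cells (1.05%), fewer genes were called higher. Of 3367 genes, 18 (0.535%) were then at least 2-fold higher and 15 (0.446%) at least 2-fold lower. Of the 115 genes called higher before, 22 were still measured and 15 still called, while 12 of the 12 called lower were called again. Serpina6 had a log2 ratio of 0.08 without those cells and Pcbd1 of 0.03, while H19 kept 1.02 and Ttr 1.63. Outside the liver genes, Gzma, the granzyme A gene of cytotoxic lymphocytes, had a log2 ratio of 4.38 in the full core, but 91.4% of its null-mother UMIs came from 1 cell. Nkg7, of the same kind of cell, had 55 UMIs in 12 null-mother cells and 2 UMIs in 2 het-mother cells.

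**Figure D5:**
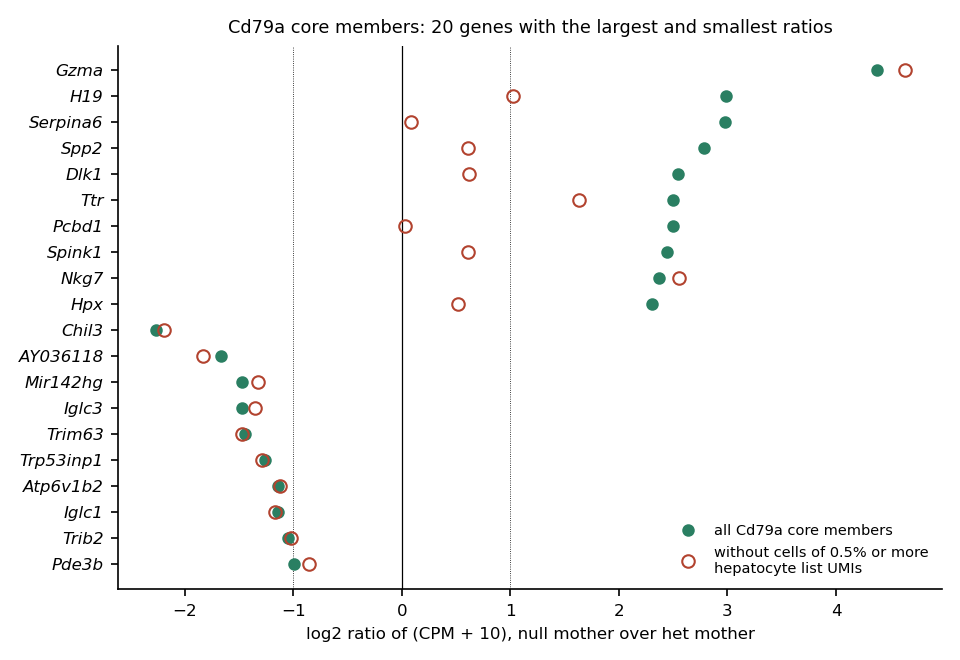
Log2 ratio of CPM + 10, null mother over het mother, for the 10 genes with the largest and the 10 with the smallest ratios in the Cd79a core; filled points show all core cells and open points those left after removing cells with 0.5% or more hepatocyte list UMIs. Serpina6, Spp2, Dlk1, Pcbd1, Spink1 and Hpx drop below 1 without those cells, whereas Iglc3 and Iglc1 keep ratios below -1.

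Both measured lambda genes were among the genes lowest in the null-mother core. Iglc3 was at 93.0 CPM in the null-mother core and 276 CPM in the het-mother core, a log2 ratio of -1.47. Iglc1 was at 178 (null) and 404 CPM (het), a log2 ratio of -1.14. Other genes low in the null-mother core were spread over many cells. AY036118 had 69 UMIs in 51 null-mother cells and 300 UMIs in 217 het-mother cells, a log2 ratio of -1.67. Mir142hg, the host of a microRNA of blood cells, had 20 UMIs in 19 null-mother cells and 93 in 83 het-mother cells, a ratio of -1.48. Trp53inp1, a gene induced by p53, was at 25.0 (null) and 74.0 CPM (het), a ratio of -1.26. Trim63, a ubiquitin ligase, Atp6v1b2, a proton pump subunit, Trib2, a pseudokinase, and Pde3b, a phosphodiesterase, had ratios of -1.45, -1.14, -1.04 and -0.99. Chil3, a chitinase-like gene of myeloid cells, had a ratio of -2.27, with 68.2% of its het-mother UMIs in 1 cell.

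B cell gene groups were lower in the null-mother core by less than 2-fold. Against a median log2 ratio of -0.05 over all measured genes, of which 43.5% were higher, 12 of 12 measured B cell identity genes, Cd79a and Cd79b of the rule among them, were lower, with a median of -0.34. Ly6d was at 759 CPM in the null-mother core and 1375 CPM in the het-mother core, and Ms4a1 had a ratio of -0.50. Of 16 B cell transcription factors, 14 were lower, with a median of -0.27. Ikzf3 had a ratio of -0.86, Bach2, a repressor of plasma cell fate, of -0.68, and Pax5 of -0.45, while Klf2 had one of 0.49. Of 12 genes of B cell receptor signalling, 9 were lower, with a median of -0.28. The kinase gene Lyn had a ratio of -0.80 and the phospholipase gene Plcg2 of -0.60. Of 9 pro-B and pre-B genes, 8 were lower, with a median of -0.30. Without the cells rich in hepatocyte RNA, 10 of 12 identity genes and 14 of 16 transcription factors were lower, with medians of -0.26 and -0.22. These ratios were not taken at equal depth, and 40.7% (null) and 54.3% (het) of core cells had under 2000 UMIs. In that class Cd79a was at 3937 (null) and 3355 CPM (het) and Cd74 at 1222 (null) and 1063 CPM (het). Ly6d was at 3132 (null) and 4324 CPM (het) there, and Ms4a1 at 288 (null) and 342 CPM (het). At 2000 to 6000 UMIs all of these were higher in the null-mother core, while Ebf1 was at 1649 (null) and 2014 CPM (het).

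Sterol genes were looked at because the mothers differ in a sterol enzyme. Of 23 listed genes of cholesterol synthesis and uptake, 6 were measured in the core, all higher in the null-mother core, with a median log2 ratio of 1.25. Fdps, a mevalonate pathway enzyme, was at 102 CPM in the null-mother core and 22.5 CPM in the het-mother core. Hmgcs1, which acts earlier in the pathway, was at 82.3 (null) and 24.0 CPM (het). Without the cells rich in hepatocyte RNA, Fdps was at 26.0 (null) and 20.8 CPM (het) and Hmgcs1 at 20.5 (null) and 22.3 CPM (het). The 23 genes summed were then at 382 (null) and 335 CPM (het), where the full core had 884 (null) and 353 CPM (het). Only 1 of the 23 then reached the minimum of 50 UMIs. Of 6 measured LXR targets, the genes switched on by oxysterol receptors, 3 were higher and 3 lower, with a median of 0.08.

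Cell cycle groups lay near 0 between the mothers and glycolysis genes were mostly higher. Of 16 genes of G2 and M phase, 13 were higher in the null-mother core, with a median of 0.09, and their summed level was 5294 CPM in the null-mother core and 4886 CPM in the het-mother core. At least 2 UMIs of them were found in 62.9% of null-mother core cells (57.2 to 68.3%) and 50.7% of het-mother core cells (46.2 to 55.3%). With cells thinned to 2000 UMIs, which leaves out 125 (null) and 259 (het) shallower cells, the shares were 85.4% (null) and 84.6% (het). Of 14 S phase genes, 5 were higher, with a median of -0.04. Of 11 glycolysis genes, 10 were higher, with a median of 0.24 and Ldha at 0.98. Of 8 genes of the unfolded protein response, 6 were higher, with a median of 0.27. Of 8 erythroid genes all were lower, with a median of -0.66, beside haemoglobin at 0.485% of null-mother and 0.871% of het-mother core UMIs.

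Over all members, the mother contrast ranked partly other genes than in the core. Of 7807 measured genes, 130 (1.67%) were at least 2-fold higher in the null-mother members and 58 (0.743%) at least 2-fold lower. The 10 largest ratios were of Pf4, Ppbp, Treml1, Alox12 and Myl9, genes of megakaryocytes and platelets, and of Ttr, H19, Spp2, Apoa2 and Afp, genes of fetal liver. Pf4 was at 8329 CPM in the null-mother members and 1845 CPM in the het-mother members, in 73 (null) and 45 (het) cells. The 10 smallest were of the B cell genes Iglc3, Ly6d, Iglc1, Rag1, Fcrla, Bach2, Igkc and Ikzf3, and of the basophil genes Prss34 and Mcpt8. Igkc was at 492 CPM in the null-mother members and 1345 CPM in the het-mother members, a log2 ratio of -1.43. In the core its ratio was -0.55. Cd79b-only members were 44.4% of the null-mother and 23.8% of the het-mother members, and a link of this difference to these ratios was not tested. Ttr, H19 and Spp2 had log2 ratios of 2.10, 2.02 and 1.90 over all members and 2.50, 2.98 and 2.79 in the core. Among the Cd79a-positive members alone, 188 of 4682 genes (4.02%) were at least 2-fold higher in the null-mother library and 19 (0.406%) at least 2-fold lower. Over surrogate light chain positive cells, 31 of 5772 genes (0.537%) were at least 2-fold higher in Cd79a-positive members of both libraries and 43 (0.745%) lower. Among the Cd79b-only members, 93 of 6098 genes (1.53%) were at least 2-fold higher in the null-mother library and 15 (0.246%) lower. Liver genes led there too, with Alb at 1053 CPM in null-mother and 91.2 CPM in het-mother Cd79b-only members and Afp, the alpha-fetoprotein gene, at 499.8 (null) and 38.8 CPM (het). For Alb, 32.0% (null) and 40.9% (het) of its UMIs there came from 1 cell, and for Afp 33.6% (null) and 33.3% (het). Ly6d, at 3.68 (null) and 107 CPM (het), was lowest by ratio. Its UMIs lay in 3 null-mother and 15 het-mother cells, with 86.7% (null) and 38.2% (het) of them in 1 cell.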

How the data were processed

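The authors deposited raw UMI counts in 1 matrix of 31053 genes and 43351 cells, with no cell types. Per the submitters' processing notes, Cell Ranger 3.0.0, Seurat 4.3.0 and mm10 were used, with no settings given. The files of gene names and of cell names were swapped by name, and what each holds was read from its entries. The library name of the E18.5 het-mother group carries a wild-type tag, and its genotype label was used. The minimum of 500 UMIs per cell seen in the counts was set before deposit. No doublet caller was run, so doublets remain among the members.

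Counts were summed over the cells of each set and library and scaled to CPM with Python 3.11.15, numpy 2.4.6, pandas 2.3.3 and scipy 1.17.1. Log2 ratios used a pseudocount of 10 CPM, which understates the change of low genes. Measured genes had 50 UMIs or more in the set with the higher CPM and called at 2-fold on that scale. Intervals are exact Poisson or Clopper-Pearson intervals. Thinned shares are the expected shares when each cell is cut to a fixed number of UMIs. Promoters came from RefSeq (GRCm38.p6) and transcript windows from GENCODE on GRCm38.

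Members and gene lists were chosen with earlier results of these data known. The Cd79a core, the hepatocyte limit of 0.5% and the depth classes were chosen after values were seen. Named genes are the 10 with the largest and the 10 with the smallest ratio among measured genes, by the mean of both libraries for the contrast with surrogate light chain positive cells. Haemoglobin, Xist, Y-linked, mitochondrial, predicted and immunoglobulin variable genes and the genes of the rule were left out of the ranking, and members of the gene lists were named besides. Alternatives changed the Cd79 and surrogate light chain limits, the depth, sex, pseudocount and UMI minimum, and the scaling. Values of some single genes are not reported here.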

Additional observations from a re-analysis of the deposited data

Results flagged for a closer look

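The same rule also found cells in the E14.5 libraries, which no comparison above uses, 71 in the null-mother library of 4843 cells and 18 in the het-mother library of 4957 cells. None of them had a Cd79a UMI. They met the rule through 214 and 49 Cd79b UMIs. C1qa, C1qb or C1qc reached 3 UMIs together in 34 of the 71 and 10 of the 18, and 19 and 4 of them shared a cell barcode with another library. Their median depth was 26455 and 30146 UMIs. Ighm had a UMI in 42.3% and 55.6% of them. They were not set against the E18.5 members.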

How the results depend on the processing

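No paired analysis was possible because each group holds 1 library. No replicate was left out, since that would leave no library, and every ratio between the mothers compares 2 libraries, not 2 genotypes. Depth limits the low genes: a gene at the minimum of 50 UMIs carries a counting error that a 2-fold call does not take into account, and shares of cells with a UMI depend on depth. The sex of the cells, the hepatocyte RNA and the mother's genotype differ together between the libraries. In what follows, each share is given as the null-mother share over the het-mother share.

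For the Cd79a core, 69 of 93 alternative values kept direction and size. The core's share of cells, 0.664 as reported, was 0.821 in cells of at least 3000 UMIs (approximate interval 0.6445 to 1.045). With 1000 genes or more and a mitochondrial share below 10% it was 0.848 (approximate interval 0.6933 to 1.037). The share was 0.525 in male cells, and 0.540 without cells of 10% haemoglobin in the denominator. It turned to 1.15 when cells with Vpreb2 or Vpreb3 UMIs were also left out, which left too few cells for a gene contrast (10 and 9). The lambda ratio, 0.464 as reported, was 0.180 at 3000 UMIs, with lambda in 0.855% (null) and 4.76% (het) of cells. The approximate interval of that ratio was 0.0224 to 1.438, so no difference can be read at that depth. With thinning to 2000 UMIs the lambda ratio was 0.700. The ratio of cells with mitotic UMIs, 1.24 as reported, turned to 0.983 at 3000 UMIs and to 0.980 with 1000 genes. Genes called higher in the null-mother core, 115 as reported, were 235 with a minimum of 10 UMIs, 30 with 200 UMIs, 37 in male cells and 18 without cells rich in hepatocyte RNA. Those called lower, 12 as reported, were 25 with a pseudocount of 1 CPM, 20 with a minimum of 10 UMIs and 4 with 200 UMIs. Genes higher in the core than in surrogate light chain positive cells, 26 as reported, were 14 with a minimum of 200 UMIs, 13 in cells of at least 3000 UMIs, 17 with 1000 genes, and 14 in cells of 2000 to 6000 UMIs. Those lower, 45 as reported, were 140 with a pseudocount of 1 CPM, 28 with a minimum of 200 UMIs, 113 with a mean over cells, and 79 in cells of 2000 to 6000 UMIs. Of single genes, Gzma turned to -0.43 with a Cd79 sum of at least 4. The causes were not tested.

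Over all members, 69 of 115 values kept direction and size. The members' share of cells, 0.974 as reported, was 0.711 with a Cd79 sum of at least 4, 0.693 with a UMI of each Cd79 gene, 0.710 with a Cd79a UMI and 0.664 in the core. It was 1.34 in cells of at least 3000 UMIs, 1.26 with 1000 genes, 1.93 without Vpreb2 and Vpreb3 UMIs, and 0.792 without haemoglobin-rich cells in the denominator. The kappa or lambda ratio was 0.620 under the rule, from 45.2% (null) and 72.9% (het) of members. It was 0.866, 0.873, 0.860 and 0.924 under the first of these settings in the same order. That ratio was 0.547 at 3000 UMIs, 0.374 without Vpreb2 and Vpreb3 UMIs and 0.457 in male cells. The lambda ratio was 0.315 under the rule, from 6.53% (null) and 20.8% (het) of members. It was 0.459 with a UMI of each Cd79 gene, 0.445 with a Cd79a UMI and 0.464 in the core. The mitotic ratio was 1.26 under the rule, from 73.7% (null) and 58.6% (het) of members. It was 1.36 with a Cd79 sum of at least 4, 1.00 at 3000 UMIs and 1.01 without Vpreb2 and Vpreb3 UMIs. With 1000 genes it turned to 0.998.

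Genes called higher in null-mother members, 130 as reported, were 331 with a pseudocount of 1 CPM. Those called lower, 58 as reported, were 139 with a pseudocount of 1 CPM, 36 with a minimum of 200 UMIs, 36 with a Cd79 sum of 4, 23 with a UMI of each Cd79 gene, 28 at 3000 UMIs, 31 with 1000 genes, 13 without Vpreb2 and Vpreb3 UMIs, 19 with a Cd79a UMI and 12 in the core. Genes higher in members than in surrogate light chain positive cells, 163 as reported, were 300 with a pseudocount of 1 CPM, 93 with a minimum of 200 UMIs, 33 with a Cd79 sum of 4, 29 with a UMI of each Cd79 gene, 291 without Vpreb2 and Vpreb3 UMIs, 31 with a Cd79a UMI, 26 in the core and 83 in cells of 2000 to 6000 UMIs. Those lower, 91 as reported, were 226, 42, 38, 322, 43 and 45 with a pseudocount of 1 CPM, a Cd79 sum of 4, a UMI of each Cd79 gene, no Vpreb2 or Vpreb3 UMI, a Cd79a UMI, and in the core.

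Single genes that turned were genes of other blood cells, apart from Iglc1 at -0.25 in null-mother members over surrogate light chain positive cells without Vpreb2 and Vpreb3 UMIs. Between the mothers, Mcpt8 turned to 0.068 with a UMI of each Cd79 gene and to 0.064 with a Cd79a UMI, and in the core Pf4 turned to -0.11 and Alox12 to -0.20. Over surrogate light chain positive cells of the null-mother library, Hmox1 turned to -0.37 with a Cd79 sum of 4, -0.091 with a UMI of each Cd79 gene, -0.12 with a Cd79a UMI and -0.083 in the core. In the core C1qb turned to -0.31 in the null-mother and -0.027 in the het-mother library, C1qc to -0.038, Marco to -0.18 and Cd5l to -0.061 in the null-mother library. Of list medians, pro-B and pre-B genes turned to 0.060 and hepatocyte genes to 0.51 in the null-mother core. Counting every median, also those near 0, signs changed in 86 of 526 list medians over surrogate light chain positive cells and 11 of 267 between the mothers, and for the core in 31 of 374 and 10 of 188.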

Other observations

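Of 7 measured genes of MHC class I presentation, 5 were higher in the core than in surrogate light chain positive cells in each library, with median log2 ratios of 0.28 in the null-mother and 0.26 in the het-mother library, and H2-D1 at 0.83 (null) and 0.75 (het). Between the mothers, 5 of the 7 were higher in the null-mother core, with a median of 0.10. Tnfrsf13c, the receptor for the survival factor BAFF, was higher in the core than in surrogate light chain positive cells by 0.88 (null) and 0.94 (het), and Ccr7, a homing receptor of lymphoid tissue, by 1.05 (null) and 0.66 (het). Ifi27l2a, an interferon-responsive gene, was higher by 1.51 (null) and 1.86 (het), while of the 4 measured interferon genes 1 was lower in the null-mother core and 2 in the het-mother core.

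Core cells with no light chain UMI, 40 in the null-mother and 28 in the het-mother library, differed from kappa cells in both directions. Ebf1 was at 844 CPM in the null-mother and 1247 CPM in the het-mother cells of this kind, against 1572 (null) and 1894 CPM (het) in core cells with at least 2 kappa UMIs and no lambda. Vpreb3 was at 820 (null) and 922 CPM (het), against 2641 (null) and 2974 CPM (het). Rag1 was higher, at 112 (null) and 222 CPM (het), against 34.8 (null) and 90.7 CPM (het). So was Cd93, at 200 (null) and 230 CPM (het), against 107 (null) and 118 CPM (het). Mzb1 lay close, at 673 (null) and 771 CPM (het), against 735 (null) and 835 CPM (het). The cells with no light chain UMI had a median depth of 3864.5 (null) and 3306.5 UMIs (het), above the 2661 (null) and 2232 UMIs (het) of the kappa cells. These cells were not set apart by any other rule, and doublets among them were not tested.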
